A study of Mus musculus with 36 samples.

Results

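Tenascin C (Tnc) and 9 other genes of the scar-forming matrix are described here across 6 treatment groups of mouse lungs. The 10 genes were chosen by symbol, with earlier results of these data known. All 10 were found in the female and in the male count table, among 17716 genes that both tables name. They are the matricellular genes Tnc, Postn and Ctgf (Ccn2 in current annotation), the adhesive glycoprotein gene Fn1, the fibrillar collagen genes Col1a1, Col1a2 and Col3a1, the elastin gene Eln, the cross-linking enzyme gene Lox and the smooth muscle actin gene Acta2.

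The libraries hold RNA from the left lungs of 36 wild-type C57BL/6 mice, 18 female and 18 male, with 3 mice of a sex in each group. The groups were saline (the control), the oil dispersants Corexit 9527 and Corexit 9500, oil from the MC252 well, and oil mixed with either dispersant (named 9527+oil and 9500+oil). Each agent was given into the airways on days 0, 7 and 13 as an accommodated fraction at 0.1 strength, and the lungs were taken on day 14. By the study's methods, oil alone was given as the saline phase left after separation. The preparations with dispersant were given without removing a phase, so oil alone and the mixtures with oil were not made alike. The labels name the fraction as water accommodated and the route as intratracheal instillation, where the study's methods name a saline accommodated fraction and oropharyngeal aspiration. The mice carried no transgene and were bought at 7 weeks of age and housed for 1 week before use. All treated groups were set against the same 3 saline mice of their sex, so their comparisons with saline share controls.

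In a lung that is wounded or inflamed, fibroblasts lay down a provisional matrix rich in fibronectin and tenascin C before fibrillar collagen accumulates. Tenascin C is a large hexameric glycoprotein that is scarce in the healthy adult lung and is made at sites of repair. Collagen and elastin fibres are then fixed in place by lysyl oxidases, and activated fibroblasts that contract the tissue contain smooth muscle actin. Transforming growth factor beta is the best known inducer of this set of genes, and connective tissue growth factor (Ctgf) is one of its targets.

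Tnc lies on the minus strand of chromosome 4 (chr4:63959785-64047015, GRCm38), and Col3a1 on the plus strand of chromosome 1 (chr1:45311538-45349706). Upstream sequences from RefSeq (GRCm38.p6) were matched for 5 of the 10 members, which are Tnc, Col3a1, Col1a2, Postn and Acta2. The 250 bases before the start site are shown for Tnc and Col3a1, since these members, with Col1a2, were lower without overlap in either sex when oil was added to Corexit 9527. The RefSeq start site of Col1a2 lies 804 bases from its annotated gene start, and its sequence is not shown. Capitals mark the motifs that were found, which are TATAAA, then CAGAC (the core of the SMAD site) and GGAATG (the core of the TEAD site), read on either strand. Tnc occupies chr4:64047016-64047265 on the minus strand, and Col3a1 occupies chr1:45311288-45311537 on the plus strand.
Tnc: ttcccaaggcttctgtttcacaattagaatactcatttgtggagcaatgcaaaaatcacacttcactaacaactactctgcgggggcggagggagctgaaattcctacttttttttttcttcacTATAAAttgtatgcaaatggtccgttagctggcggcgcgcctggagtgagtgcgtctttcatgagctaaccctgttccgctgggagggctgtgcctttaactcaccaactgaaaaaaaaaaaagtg
Col3a1: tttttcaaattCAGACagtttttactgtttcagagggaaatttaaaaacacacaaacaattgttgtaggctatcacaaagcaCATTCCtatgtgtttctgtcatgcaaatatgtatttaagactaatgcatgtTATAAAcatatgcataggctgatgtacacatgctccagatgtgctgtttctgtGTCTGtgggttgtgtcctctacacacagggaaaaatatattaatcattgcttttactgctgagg

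TATAAA begins 126 bases before the start site in Tnc and 117 bases before it in Col3a1, and 12.4% of 32851 RefSeq upstream sequences of the same length hold it. Col3a1 also holds CAGAC at 2 places, a motif found in 42.2% of the sequences, and GGAATG, found in 12.6%. None of CCAAT (33.8% of the sequences), TGANTCA (6.75%, the AP-1 site) and the CArG box of serum response factor (1.47%) was found in either sequence. These matches describe the letters of the windows alone. Only 1 of the 2 RefSeq windows of Tnc, the one at the annotated gene start, was used.

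Between 17501180 and 30011557 reads were counted per mouse. Levels are given as CPM, counts per 1000000 counted reads, after scaling by trimmed mean of M values, and a log2 fold change compares groups on that scale. A gene is said to have risen or fallen where edgeR's quasi-likelihood test gave a Benjamini-Hochberg adjusted p under 0.05 over all genes tested. An unadjusted p under 0.05 is used to describe members against the share of all genes that reach it. SE is the standard error of a log2 fold change. Fits over both sexes held 6 against 6 mice with sex as a term. In bulk tissue, more RNA per cell and more cells of a type cannot be told apart.

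In all, 4 female libraries, 1 each of the saline, oil, Corexit 9527 and 9500+oil groups, stood apart from the other 32. Their mitochondrial genes took 20.7% to 45.1% of the counts against 5.27% to 11.3% in the others. Their balance of GC-rich over GC-poor genes relative to the median library was -4.86 to -2.95 on the log2 scale, where the other libraries ran from -1.06 to 0.41. The members did not respond alike in these libraries, as the plot of members against GC content shows. Relative to the mean of the other mice of its group, log2 CPM of Eln was -10.55 to -1.92, with no count at all in the third female saline mouse, while that of Lox was 0.89 to 2.20 and that of Postn 0.81 to 1.38. Tnc differed by -0.20 to 0.99 and Fn1 by -0.63 to -0.22. The main results are therefore also given without these 4 libraries where a call changes.

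In saline lungs Tnc was the least abundant member once levels were divided by transcript length. It stood at 3.26 ± 0.66 CPM per kb (SD, n = 3) in female and 5.47 ± 0.37 CPM per kb in male mice. Col3a1 had the highest mean, with 132 ± 30.4 CPM per kb in female and 160 ± 5.52 CPM per kb in male mice. Without the female saline library that is among the 4, Acta2 (130 CPM per kb) came before Col3a1 (119 CPM per kb) in the 2 female mice left, with overlapping ranges, while Lox was at 7.99 and Postn at 79.4 CPM per kb, from 17.6 and 111, and Eln was at 33.8, from 22.6. In male mice the order below it was Acta2 (126), Fn1 (111), Col1a2 (100), Postn (76.0), Col1a1 (73.2), Ctgf (70.4), Eln (53.6) and Lox (17.1 CPM per kb). The ranges of neighbours overlapped for Acta2 and Fn1, for Postn and Col1a1, for Col1a1 and Ctgf, and for Ctgf and Eln, and did not for the other pairs. In female mice, where 1 saline library was among the 4, the ranges of neighbours overlapped for all but Col1a1 over Eln and Lox over Tnc.

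Among the members, Tnc had the largest log2 fold changes with either dispersant. In female saline mice Tnc was at 18.3, 27.5 and 23.8 CPM, and in female Corexit 9527 mice at 128, 89.1 and 81.6 CPM. In male saline mice it was at 41.0, 39.8 and 35.9 CPM, and in male Corexit 9527 mice at 123, 442 and 85.4 CPM. The Corexit 9527 mice did not overlap with saline in either sex, and 1 male mouse lay far above the other 5.
Over both sexes the log2 fold change of Tnc was 2.28 (SE 0.36), a ratio of 4.86, with an adjusted p of 0.107 that missed the threshold. In this comparison 5 of 15107 genes passed (0.0331%), and none was a member. Without the 4 female libraries Tnc rose, by 2.37 (adjusted p = 0.0121), where 2.25% of all genes passed, and it also passed with DESeq2 (adjusted p = 3.32e-06) and with limma voom (adjusted p = 0.00158). Leaving out each mouse in turn moved the adjusted p between 0.0354 and 0.476. Within a sex the log2 fold change was 2.09 in female (SE 0.36, adjusted p = 1.0) and 2.48 in male mice (SE 0.55, adjusted p = 0.116). The male value rested in part on the mouse at 442 CPM, without which it was 1.42 (adjusted p = 0.049). Male Tnc also passed with DESeq2 (adjusted p = 0.0183), with all 6 groups in one fit (adjusted p = 0.0162) and without the mouse at 85.4 CPM (2.87, adjusted p = 0.0242). The difference between the sexes was 0.38 (SE 0.72, adjusted p = 1.0), too wide an error to tell the sexes apart or alike.

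With Corexit 9500 Tnc was at 54.5, 34.5 and 114 CPM in female mice and at 106, 65.7 and 45.8 CPM in male mice. Again neither sex overlapped with saline, though the mouse nearest to saline in the male group exceeded the highest saline mouse by little. The log2 fold change over both sexes was 1.21 (SE 0.30), a ratio of 2.32, with an adjusted p of 0.97. No gene among 15211 passed in that comparison (0%). Groups that did not overlap in either sex, with the treated mice higher, were seen for 0.657% of genes with Corexit 9500 and for 0.947% with Corexit 9527, against 1 and 2 of the 10 members.

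Where oil was given, alone or with a dispersant, Tnc overlapped with saline. It was at 25.9, 19.9 and 31.2 CPM with oil alone, at 16.8, 36.1 and 19.6 CPM with 9500+oil and at 17.9, 31.5 and 21.04 CPM with 9527+oil in female mice. In male mice it was at 31.4, 35.5 and 40.2 CPM with oil alone, 28.2, 30.9 and 39.5 CPM with 9500+oil and 25.4, 40.9 and 24.6 CPM with 9527+oil. In each of these groups at least 1 mouse lay within the saline range of its sex, while 6 of the 9 male mice lay under it, and the log2 fold changes over both sexes were -0.01 (SE 0.16), -0.09 (SE 0.21) and -0.18 (SE 0.20).
Set directly against Corexit 9527, the 9527+oil mice had less Tnc. It fell by 2.45 on the log2 scale (SE 0.39, adjusted p = 0.0262), a ratio of 0.182, and all 9527+oil mice lay under all Corexit 9527 mice of their sex. In this comparison 88 of 15189 genes passed (0.579%), of which 1 was a member. The call was kept in the fits without the 4 libraries (-2.55, adjusted p = 0.005) and lost when any of 9 mice was left out, with adjusted p from 0.005 to 0.111. For 9500+oil against Corexit 9500 the log2 fold change of Tnc was -1.31 (SE 0.31, adjusted p = 0.999), and the female mice of these groups overlapped.

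**Figure D1:**
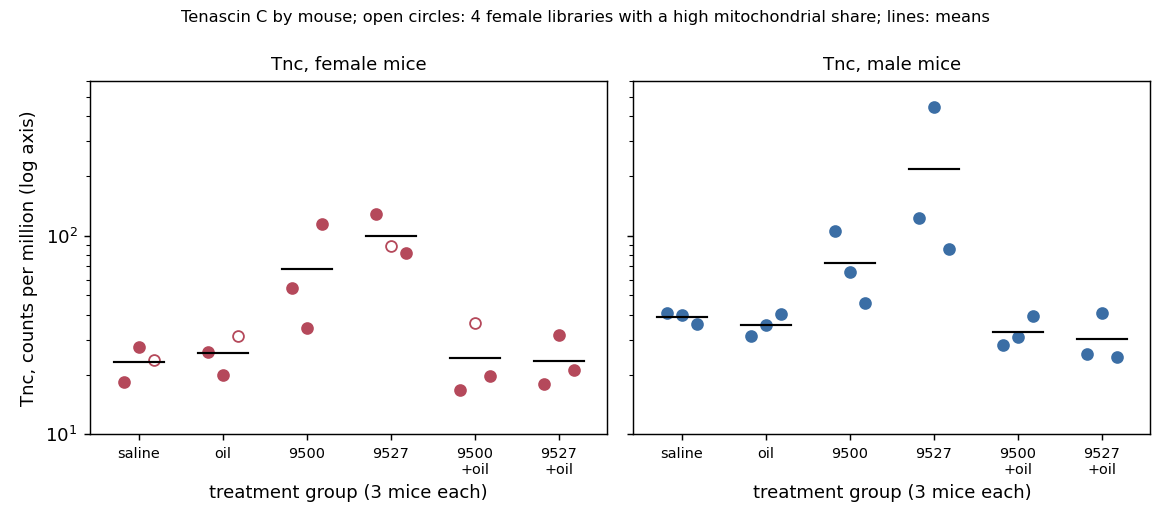
Tnc in CPM (log axis) for each mouse by treatment group, female mice on the left and male mice on the right; black lines are group means of 3 mice, and open circles mark the 4 female libraries with a high mitochondrial share. The Corexit 9500 and Corexit 9527 mice sit above all saline mice of their sex, from 34.5 CPM in female and 45.8 CPM in male mice. In male mice 1 Corexit 9527 mouse reaches 442 CPM. Each of the oil, 9500+oil and 9527+oil groups overlaps with the saline mice of its sex, with 6 of the 9 male mice under the saline range and 1 female mouse of each group above it.

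Across the 6 groups of a sex, a single test asked of each gene whether any group differed. In male mice Tnc (adjusted p = 0.0197) and Col3a1 (adjusted p = 0.045) passed among 21 of 15519 genes (0.135%). In female mice no member passed among 2 of 15526 genes (0.0129%), and Tnc had the smallest of the members' adjusted p, 0.343. At an unadjusted p under 0.05 there were 5 members in male mice (Tnc, Col3a1, Col1a2, Col1a1 and Fn1), where 10.4% of all genes passed, and 1 in female mice (Tnc), where 1.35% did. In female mice the test of Tnc had an adjusted p of 7.17e-07 with DESeq2 and 0.0267 with limma voom. In male mice Tnc missed the threshold with limma voom (adjusted p = 0.0559) and Col3a1 did not (adjusted p = 0.0319). As each of the 18 male mice was left out, the call of Tnc was kept in 14 fits and lost in 4, and that of Col3a1 was kept in 5 and lost in 13.

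Fibronectin had the next smallest p of the members with Corexit 9527 over both sexes. In male mice Fn1 (chr1:71585520-71653200, minus strand) was at 913, 927 and 940 CPM with saline and at 1410, 1622 and 1572 CPM with Corexit 9527. The groups were well apart, since the saline mice differed by few CPM. Fn1 rose by 0.73 on the log2 scale (SE 0.10, adjusted p = 0.0468), a ratio of 1.66, as the only member among the 17 of 14919 genes that passed (0.114%). That call was close to the threshold. It was lost when all 6 groups shared a fit (adjusted p = 0.054) and when any of 5 mice was left out, with adjusted p from 0.0217 to 0.221.
In female mice Fn1 was at 634, 533 and 376 CPM with saline and at 879, 667 and 960 CPM with Corexit 9527. Here too the groups did not overlap, but the lowest mouse of each was 1 of the 4 libraries. The log2 fold change was 0.70 in female mice (SE 0.38, adjusted p = 1.0) and 0.71 over both sexes (SE 0.16, adjusted p = 0.384). Without the 4 libraries Fn1 rose over both sexes, by 0.70 (adjusted p = 0.00356).

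Fn1 was also above saline in some groups that received oil, though not in female oil mice, which had 521, 578 and 471 CPM, within the saline range (-0.01, SE 0.31). Male oil mice had 1185, 1236 and 1963 CPM, all above the saline mice, a log2 fold change of 0.65 (SE 0.18, adjusted p = 0.354). With 9500+oil the male mice, at 1019, 1042 and 1096 CPM, were all above saline too (0.18, SE 0.08, adjusted p = 0.546), and the female mice overlapped with it. With 9527+oil, Fn1 was at 674, 915 and 644 CPM in female and 914, 1222 and 1334 CPM in male mice. All 3 female mice of that group were above saline, while 1 male mouse was within the saline range, and the log2 fold change over both sexes was 0.42 (SE 0.16, adjusted p = 0.832), which offsets for GC content and gene length lowered to 0.04. With Corexit 9500 it was 0.56 (SE 0.24, adjusted p = 0.97). For 9527+oil against Corexit 9527 it was -0.28 (SE 0.16, adjusted p = 0.405). Whether Fn1 and Tnc differed in their response to added oil was not tested.

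Among the fibrillar collagens, Col3a1, the chain of type III collagen, had the largest values with Corexit 9527. Male saline mice had 884, 922 and 862 CPM and male Corexit 9527 mice 1342, 1364 and 1435 CPM. The gap between these groups was wider than the spread within either. The log2 fold change was 0.63 (SE 0.09), with an adjusted p of 0.0558 that fell to 0.0145 when all 6 groups shared a fit.
In female mice Col3a1 was at 544, 783 and 870 CPM with saline and at 1041, 1447 and 825 CPM with Corexit 9527. These groups overlapped, and the highest mouse of each was among the 4 libraries. The 2 other female mice of each group did not overlap. Over both sexes the log2 fold change was 0.61 (SE 0.18, adjusted p = 0.761), and without the 4 libraries Col3a1 rose by 0.58 (adjusted p = 0.0221).

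Col1a1 and Col1a2, the chains of type I collagen, followed with smaller values. Over both sexes with Corexit 9527 the log2 fold change was 0.43 for Col1a1 (SE 0.14) and 0.41 for Col1a2 (SE 0.18), each with an adjusted p of 1.0. In male mice Col1a1 was at 409, 476 and 418 CPM with saline and 512, 584 and 686 CPM with Corexit 9527. Col1a2 was at 497, 572 and 542 CPM with saline and at 668, 668 and 713 CPM with Corexit 9527 in male mice. Neither gene overlapped between these male groups, whereas both did in female mice. Without the 4 libraries, which left 2 female mice in each group, neither gene overlapped in female mice. Col1a1 was then at 267 to 345 CPM with saline and 364 to 410 CPM with Corexit 9527. Col1a2 was at 330 to 472 CPM and 523 to 582 CPM.

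Tnc, Fn1, Col3a1, Col1a1 and Col1a2 were thus the 5 members with an unadjusted p under 0.05 and a higher level with Corexit 9527 over both sexes, where 2.27% of all genes were in that class. Once GC content and transcript length were offset, 2 of them, Tnc and Fn1, kept an unadjusted p under 0.05 (4.39% of all genes in either direction), while Col3a1, Col1a1 and Col1a2 were at 0.51, 0.37 and 0.26. In male mice the same offsets took them to 0.69, 0.54 and 0.41, and Col3a1 passed (adjusted p = 0.0393). In male mice alone the same 5 were in that class, against 7.96% of all genes, and the same 5 did not overlap with saline, against 10.7%. The median log2 fold change of the 10 members over both sexes was 0.37, beside 0.01 for all genes. With Corexit 9500 it was 0.23, beside 0.03 for all genes, and 3 members (Tnc, Col1a1 and Fn1) were in the class, against 1.29% of all genes. These offsets lowered that median to 0.04 and took Fn1 with Corexit 9500 to 0.29. They left 1 member with an unadjusted p under 0.05, against 2.97% of all genes in either direction. They also turned the uncalled values of Col1a1, Col1a2 and Col3a1 with Corexit 9500 to -0.19, -0.60 and -0.08. No order of the collagens with Corexit 9500 is therefore given.

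In the comparison of 9527+oil with Corexit 9527 alone, 2 of the 3 collagens, like Tnc, did not overlap between the groups in either sex. Tnc, Col3a1 and Col1a2 had a lower level in every 9527+oil mouse than in every Corexit 9527 mouse of the same sex, where 3.41% of all genes did. The same 3 had an unadjusted p under 0.05 and a lower level, against 8.76% of all genes. The log2 fold change was -0.68 for Col3a1 (SE 0.16, adjusted p = 0.11) and -0.51 for Col1a2 (SE 0.14, adjusted p = 0.171). Without the 4 libraries both fell, Col3a1 by 0.58 (adjusted p = 0.0163) and Col1a2 by 0.41 (adjusted p = 0.0145), where 6.82% of all genes passed. Col1a1 was at -0.26 (SE 0.14, adjusted p = 0.382). Offsets for GC and length took Col1a1, Col1a2 and Col3a1 in this comparison to -1.13, -1.18 and -1.03, none of them called, so that the difference of Col1a1 from the other collagens was not kept. Against saline the 9527+oil mice overlapped in each sex for all 3 collagens, with log2 fold changes of 0.15 (SE 0.14), -0.11 (SE 0.14) and -0.08 (SE 0.15) for Col1a1, Col1a2 and Col3a1, which the same offsets took to -0.75, -0.92 and -0.52, none of them called.
For 9500+oil against Corexit 9500, Tnc, Col1a1 and Col3a1 had an unadjusted p under 0.05 and a lower level, against 1.37% of genes, and none of the 15156 genes tested passed (0%). The values were -0.35 for Col1a1 (SE 0.12) and -0.35 for Col3a1 (SE 0.14), each with an adjusted p of 0.999.

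**Figure D2:**
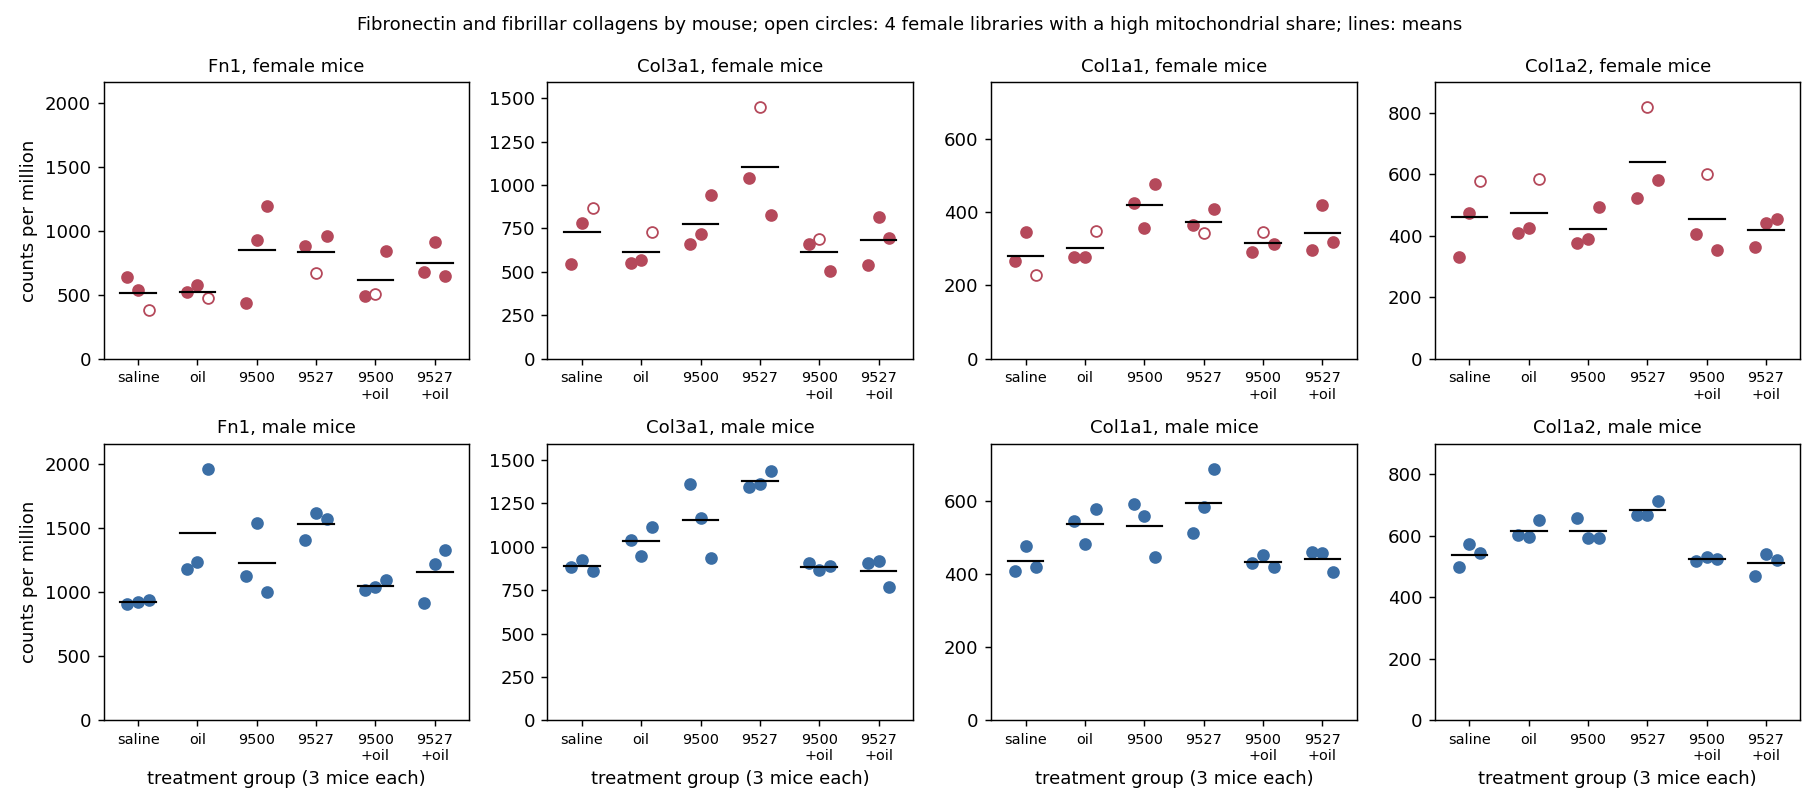
CPM (linear axes from 0) of Fn1, Col3a1, Col1a1 and Col1a2 for each mouse by treatment group, female mice above and male mice below; black lines are means of 3 mice and open circles the 4 female libraries with a high mitochondrial share. In male mice the Corexit 9527 points lie above the saline points in each of the 4 panels, and the oil points do so as well. In female mice only Fn1 separates all Corexit 9527 mice from all saline mice. The filled points of these female groups, 2 in each, separate in all 4 panels.

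With oil alone, some matrix genes lay above saline in male mice. Col1a1, Col3a1 and Fn1 had an unadjusted p under 0.05 and a higher level in male oil mice, against 5.75% of all genes, and with Col1a2 they made 4 members that did not overlap with saline, against 7.42% of genes. Male oil mice had 544, 482 and 578 CPM of Col1a1, a log2 fold change of 0.30 (SE 0.10, adjusted p = 0.495). They had 1040, 950 and 1116 CPM of Col3a1, a log2 fold change of 0.21 (SE 0.09, adjusted p = 0.589). In female mice the corresponding values were 0.06 (SE 0.29) and -0.32 (SE 0.36), with overlap of both genes. The difference between the sexes was 0.19 (SE 0.28, adjusted p = 1.0) for Col1a1 and 0.47 (SE 0.32, adjusted p = 1.0) for Col3a1. Offsets for GC content and gene length took the female values to -0.37 and -0.66 and the differences to 0.71 and 0.92, none of them called. Summed macrophage markers were also above saline in male oil mice, at 796 to 820 CPM beside 548 to 726 CPM, and their part in these values was not tested. Of all genes, 0.00671% passed in male mice and 0% in female mice.

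Ctgf, the growth factor target, had values near 0 with Corexit 9527, and with Corexit 9500 values of opposite sign in the sexes. Over both sexes its log2 fold change with Corexit 9527 was -0.03 (SE 0.24), with Corexit 9500 0.03 (SE 0.22) and with 9527+oil 0.52 (SE 0.19, adjusted p = 0.832). Female 9527+oil mice had 309, 217 and 301 CPM beside 224, 142 and 137 CPM with saline, and male 9527+oil mice 182, 267 and 212 CPM beside 182, 133 and 210 CPM. Both sexes overlapped. Ctgf and Fn1 were the 2 members with an unadjusted p under 0.05 and a higher level with 9527+oil, against 1.05% of genes. Against Corexit 9527 the 9527+oil mice had a log2 fold change of 0.56 (SE 0.22, adjusted p = 0.312), opposite in sign to that of Tnc.
In male Corexit 9500 mice Ctgf was at 118, 128 and 150 CPM, within the range of saline in its highest mouse, with a log2 fold change of -0.41 (SE 0.16, adjusted p = 0.782). In female mice the value was 0.47 (SE 0.34). The difference between the sexes, -0.87 (SE 0.36, adjusted p = 1.0), was the only difference between the sexes with an unadjusted p under 0.05 among the 10 members and 5 treatments. The share of all genes with such a p was 0.726% for Corexit 9500, 0.352% for Corexit 9527, 1.65% for oil, 0.509% for 9500+oil and 2.39% for 9527+oil. The difference of Ctgf no longer had such a p with all groups in one fit or with the offsets (-0.60). Among the settings that left out no single mouse, some added members, which were Fn1 for oil without the 4 libraries and with the offsets, Lox for Corexit 9500 without the 4 libraries and with limma voom, and Fn1, Col1a1 and Col3a1 for oil with limma voom. Ctgf was among 6 members with an unadjusted p under 0.05 in male Corexit 9500 mice, against 6.35% of genes. The other 5 were Tnc, Fn1, Col3a1, Col1a1 and Eln, all higher.

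Postn, which encodes periostin, a matricellular protein that binds collagen, had small values with the dispersants. In male mice all 18 values lay between 317 and 439 CPM. Male saline mice had 375, 394 and 422 CPM and male Corexit 9527 mice 378, 366 and 317 CPM, which overlap, at a log2 fold change of -0.17 (SE 0.10, adjusted p = 0.528). With 9527+oil the 3 male mice, at 374, 332 and 362 CPM, were all under saline, the lowest of which was at 375 CPM (-0.16, SE 0.10, adjusted p = 0.891). The female groups spread from 353 to 1064 CPM, and the 4 highest of these values were those of the 4 libraries. Over both sexes the log2 fold change of Postn with Corexit 9527 was -0.03 (SE 0.30).

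Acta2, the actin of smooth muscle and of contractile fibroblasts, overlapped with saline in each sex for all 5 treatments. With Corexit 9527 it was at 213, 290 and 264 CPM in male mice beside 229, 290 and 250 CPM with saline. The log2 fold change with Corexit 9527 over both sexes was 0.07 (SE 0.35). Lox, which oxidises lysines of collagen and elastin, was at 73.6, 84.1 and 101 CPM in male Corexit 9527 mice and at 61.7, 80.9 and 100 CPM in male saline mice. Its log2 fold change with Corexit 9527 was 0.09 in male mice (SE 0.18), and over both sexes its sign with Corexit 9500 turned from -0.35 (SE 0.36) to 0.18 without the 4 libraries.

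Eln, the gene of the elastic fibre core, varied widely between mice of a group. Male mice had 252, 221 and 146 CPM with saline, 427, 371 and 194 CPM with Corexit 9500 and 354, 148 and 702 CPM with Corexit 9527. The highest mouse of the male table was thus in the Corexit 9527 group, and another mouse of that group was level with the lowest saline mouse. The log2 fold change was 0.68 (SE 0.29, adjusted p = 0.782) with Corexit 9500 and 0.96 (SE 0.47, adjusted p = 0.412) with Corexit 9527 in male mice. Over both sexes its SE was 0.81 to 0.93 in the 5 comparisons with saline, about as large as the value in male Corexit 9527 mice.
The transcripts of Eln and Col1a1 have nearly the same GC content, 58.8% and 58.9%, yet in the 4 libraries Eln was far lower and Col1a1 within -0.42 to 0.32 log2 units of the other mice. Postn, with 36.3%, is at percentile 0.8 of all genes for GC content. The part of base composition in the values of Eln, Lox and Postn was not tested gene by gene.

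**Figure D3:**
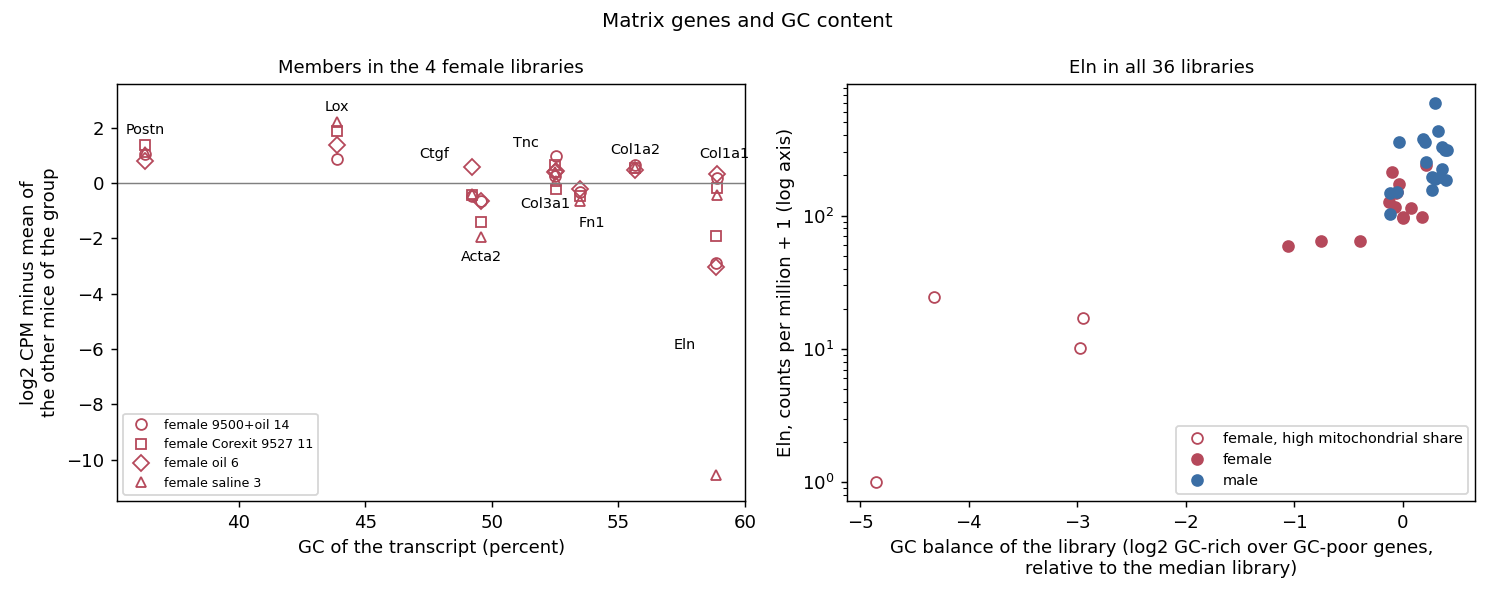
Left, log2 CPM of each member in the 4 female libraries with a high mitochondrial share minus the mean of the other mice of the group, against the GC percent of its transcript; right, Eln in CPM plus 1 (log axis) in all 36 libraries against the library's balance of GC-rich over GC-poor genes. Eln lies between -10.55 and -1.92 and Lox and Postn lie above 0 in the 4 libraries, and Eln is lowest where the GC balance is lowest.

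No member passed the test in the other comparisons with saline. Over both sexes no gene at all passed with oil (0%), 9500+oil (0%) or 9527+oil (0%), and the members had an unadjusted p under 0.05 in 0 cases with oil, against 0.435% of genes, and in 0 cases with 9500+oil, against 0.391%. In female mice 0% of genes passed with each of the 5 treatments, and Tnc alone had an unadjusted p under 0.05 with Corexit 9500, against 0.364% of genes, and with Corexit 9527, against 0.267%. For female Corexit 9500 mice, offsets for GC content and gene length left 0 members with such a p (0.781% of genes), and limma voom gave 5 (10.0%). In male mice 0.00662% of genes passed with Corexit 9500, 0% with 9500+oil and 0.00669% with 9527+oil, none of them a member. DESeq2 called Fn1 in male oil mice (adjusted p = 0.0293), Tnc in male Corexit 9500 mice (adjusted p = 0.0391) and Tnc in female Corexit 9527 mice (adjusted p = 0.00138). No gene passed the test of a difference between the sexes for any of the 5 treatments (0% each).

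**Figure D4:**
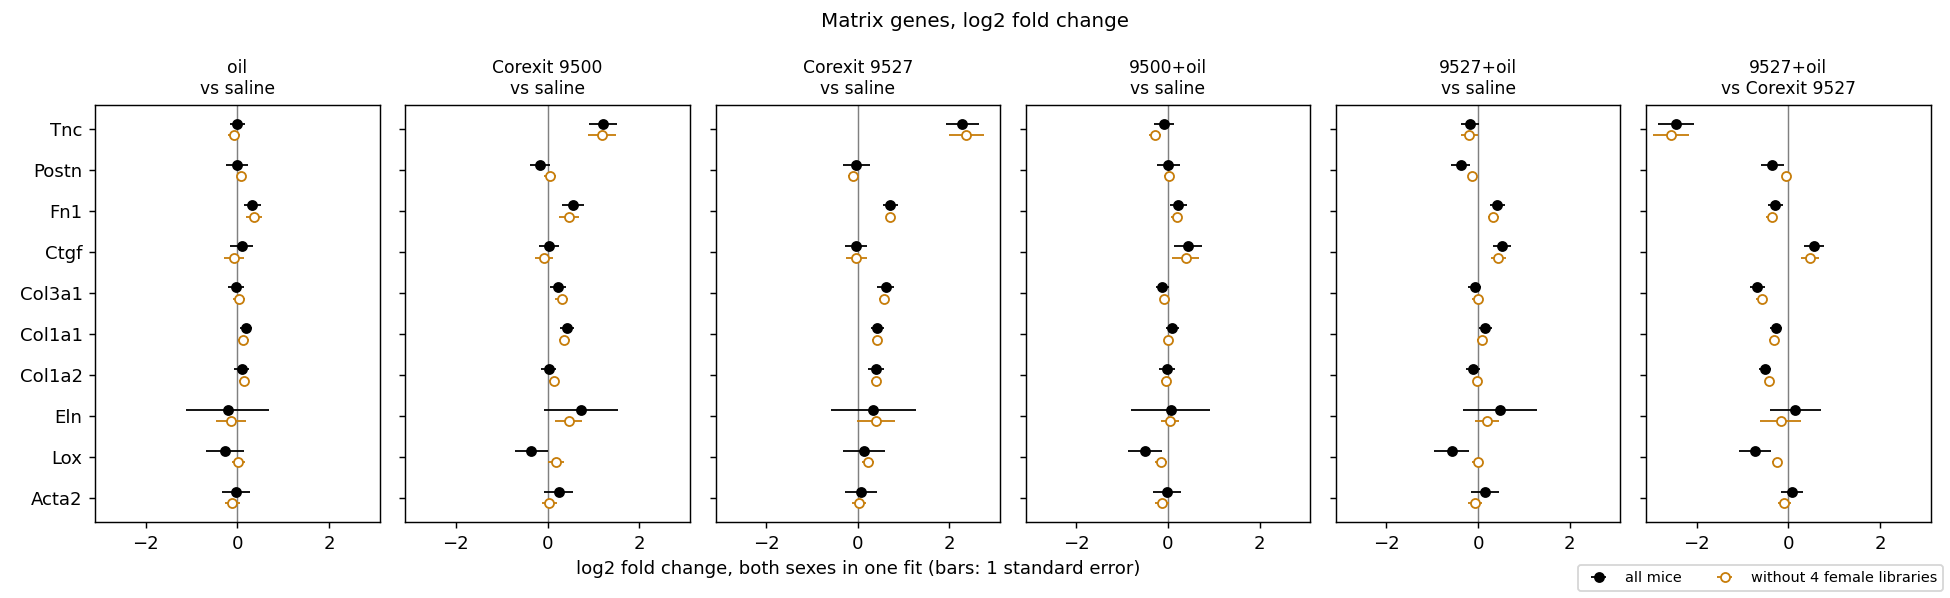
Log2 fold change with 1 standard error of the 10 members for each treatment against saline and for 9527+oil against Corexit 9527, both sexes in one fit; black points use all mice and open points leave out the 4 female libraries with a high mitochondrial share. Tnc stands at 2.28 with Corexit 9527 and 1.21 with Corexit 9500 and near 0 in the 3 groups with oil, Eln has the widest bars, and Lox moves most between the black and the open points.

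The wider matrix was described through 8 lists with 156 tested genes, covering other collagens, elastic fibres, collagen processing, other matricellular genes, proteoglycans, the transforming growth factor beta pathway, matrix receptors and contractile genes. With Corexit 9527 over both sexes none passed, 7 had an unadjusted p under 0.05 and were higher, against 2.27% of all genes, and 0 were lower, against 0.596%. Other collagens held 2 of these among 19 tested, with a median log2 fold change of 0.24. They were Col5a2, a chain of type V collagen that nucleates fibrils (0.60, SE 0.17, adjusted p = 0.66), and Col6a2 of the microfibrillar type VI collagen (0.36, SE 0.14, adjusted p = 1.0). The others were P4ha3, a prolyl hydroxylase of collagen (0.85, SE 0.24), Spp1, which encodes osteopontin (1.18, SE 0.28), Nrep (0.47, SE 0.16), the hyaluronan receptor Cd44 (0.40, SE 0.18) and the actin cross-linker Actn1 (0.34, SE 0.13). Of the 16 elastic fibre genes none had an unadjusted p under 0.05, the nearest being the fibrillin gene Fbn1 (0.27, SE 0.13) and the microfibril gene Mfap5 (0.34, SE 0.25), and the list median was 0.03. The proteoglycan list also held none among 15, with Vcan at 0.53 (SE 0.38) and Prelp at -0.25 (SE 0.18).
Values below 0 were seen for the prolyl hydroxylase P4ha1 (-0.35, SE 0.20), the co-receptor Tgfbr3 (-0.32, SE 0.15) and the actin-binding Synpo2 (-0.37, SE 0.22). Tgfbi was at 0.66 (SE 0.31) and the integrin gene Itgb6 at 0.29 (SE 0.16). Among the 27 genes of the growth factor pathway the median was 0.01, with 1 at an unadjusted p under 0.05.

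Osteopontin was the only list gene that passed against saline. In male mice Spp1 ran from 19.6 to 23.6 CPM with saline and from 55.3 to 81.0 CPM with Corexit 9527, with no overlap. It rose by 1.61 on the log2 scale (SE 0.16, adjusted p = 0.0147). In female mice it overlapped, with 48.4 to 84.6 CPM with saline and 61.0 to 159 CPM with Corexit 9527, and over both sexes it missed the threshold (1.18, adjusted p = 0.443). In male Corexit 9527 mice 25 of the 156 genes had an unadjusted p under 0.05 and were higher, against 7.96% of all genes, and 21 were lower, against 5.78%. Set against Corexit 9527, the 9527+oil mice had less Spp1, which fell by 1.37 (SE 0.23, adjusted p = 0.027). Female mice ran from 33.8 to 45.5 CPM with 9527+oil. In the same comparison Smad6, an inhibitory SMAD, rose by 1.00 (SE 0.20, adjusted p = 0.0484), while 13 list genes had an unadjusted p under 0.05 in each direction, against 5.44% of all genes higher and 8.76% lower. Endothelial and macrophage markers differed between the same groups, as given below, and their part in these values was not tested.

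The genes whose levels ran most like Tnc over the mice, by the lower of the correlations in the 2 tables, were Ctps, Mmp12, Sprr1a, Cep55 and Mcm7. Ctps makes CTP, Mmp12 is the elastase of macrophages, Sprr1a is a cornified envelope gene, Cep55 acts in cell abscission and Mcm7 is a subunit of the replicative helicase. Pearson's r with Tnc on log2 CPM was 0.84 to 0.89 for these 5 in each table, over 18 female and 18 male mice and among 12719 genes. Col3a1 came 20th, with r of 0.76 and 0.82, and Col1a1, Col1a2 and Fn1 came 122nd, 154th and 257th. Postn came 9717th, with r of 0.20 and -0.34. Without the 4 libraries the first 5 were Hn1l, Ctps, Psat1, Krt8 and Tgm1, and Col3a1, Col1a2, Col1a1 and Fn1 came 30th, 171st, 323rd and 614th. For Col1a1 the first 5 were Tnfrsf23, Piwil4, Uhrf1, Ckap4 and Col5a2 over all mice and Col6a2, Tnfrsf23, Col6a1, Col3a1 and Clip4 without the 4 libraries. These correlations follow the treatment groups and the libraries alike and are given as descriptions.

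Marker lists of the cells that make matrix overlapped between saline and the 2 groups in which Tnc was high. The summed level of 10 fibroblast markers was 3232 to 4020 CPM in female saline and 2748 to 3860 CPM in female Corexit 9527 mice, and 3793 to 4070 CPM and 2847 to 4293 CPM in male mice. The 9 markers of smooth muscle and pericytes and the 5 of mesothelium overlapped as well with Corexit 9527. No marker of these 3 lists was at 0 in every mouse of a group. Macrophage markers, 5 of 6 of which are in the tables, were at 574 to 724 CPM in female saline and 1096 to 2049 CPM in female Corexit 9527 mice, with no overlap, and at 357 to 398 CPM with 9527+oil, under saline. In male mice they were at 548 to 726 CPM with saline and 721 to 1491 CPM with Corexit 9527, which overlap. The 6 endothelial markers were lower in male Corexit 9527 mice, at 3693 to 4180 CPM beside 4555 to 5104 CPM, and lower in male Corexit 9500 and oil mice too. Macrophage markers were also higher in male oil mice. Set against Corexit 9527, the 9527+oil mice had higher endothelial, smooth muscle and pericyte markers and lower macrophage markers, without overlap in either sex. Endothelial markers were at 4007 to 4618 beside 2385 to 3026 CPM in female mice. In male mice they were at 4451 to 4616 beside 3693 to 4180 CPM. Macrophage markers of male mice were at 405 to 716 beside 721 to 1491 CPM. Every other list overlapped between these groups in female mice, male mice or both. Among the other lists, groups did not overlap with saline for fibroblast markers in male 9500+oil mice (higher, 4113 to 4679 CPM), alveolar type 1 markers in male Corexit 9500 mice (higher), club cell markers in female oil (higher) and male Corexit 9527 mice (lower) and ciliated cell markers in female 9527+oil mice (higher). Skeletal muscle markers were lower in male Corexit 9527, oil and 9500+oil mice, cardiac muscle markers in male oil mice and cartilage markers in male mice of all treated groups but 9500+oil. Markers of cartilage, a tissue of the airway wall, summed to at most 2.14 CPM in every group. All 15 marker lists were set against saline for 5 treatments in each sex, and no test was run on them. Of all genes, 7.42% were higher without overlap in male oil mice and 10.7% in male Corexit 9527 mice. The part of these cell types in the levels of the members was not tested.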

How the data were processed

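Left lung RNA of 36 mice was sequenced from stranded poly(A) libraries. The authors estimated reads per GRCm38 transcript with Salmon, combined them with tximport and deposited expected counts, already whole numbers, in a female table (18120 rows) and a male table (18295 rows). In each, 4 rows sharing a name (0.0103% and 0.0128% of counts) were left out. Groups came from the sample titles.

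Genes were tested with edgeR 4.0.16 in R 4.3.3 (TMM, filterByExpr, quasi-likelihood F-test). DESeq2 1.42.0, limma 3.58.1 voom with sample weights, 2 other scalings, 2 other filters, a fit of all groups, omission of the sex term, GC and length offsets, exclusion of 4 libraries and of each mouse were alternatives. Positions, lengths and GC came from GENCODE M21 (98.66% of 18691 names matched). Log2 CPM used a prior count of 2. The scripts were tested on simulated data.

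The members and lists were chosen with earlier results of these data known. Named were all members, the 2 genes of each list with the smallest p with Corexit 9527 over both sexes, list genes that passed, and the 5 genes most like Tnc and Col1a1. Smad6 was named after its values were seen. The labels do not say that mice were housed or dosed apart, so p-values measure the spread between these mice.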

Additional observations from a re-analysis of the deposited data

How the results depend on the processing

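The number of the 10 members that passed the test depended on the setting in several comparisons. For Corexit 9527 against saline over both sexes it was 0 (0.0331% of all genes passed), but 2 with DESeq2 (0.834%), 4 with limma voom (5.39%), 2 with all 6 groups in one fit (0.689%), 3 without the 4 libraries of a high mitochondrial share (2.25%), and 0 to 1 as each mouse was left out (1 without male mouse 11 or 12). In male Corexit 9527 mice it was 1 (0.114%), but 5 with DESeq2 (3.98%), 2 with limma voom (0.744%), with upper-quartile scaling (0.154%), without a filter (0.385%), with at least 10 counts in every mouse (0.635%) and with GC and length offsets (0.257%), 3 with all groups in one fit (1.83%), which no longer held Fn1, and 0 to 3 as each mouse was left out. For 9527+oil against Corexit 9527 it was 1 (0.579%), but 3 with DESeq2 (4.12%), 4 with limma voom (10.5%), 2 with all groups in one fit (1.02%), 3 without the 4 libraries (6.82%), and 0 to 3 as each mouse was left out. Across the 6 groups it was 2 in male mice (0.135%), but 5 with DESeq2 (3.94%), 1 with limma voom (0.187%), 4 with the offsets (0.254%), and 0 to 2 as each mouse was left out. In female mice it was 0 (0.0129%), but 1 with DESeq2 (0.309%) and 2 with limma voom (7.23%). DESeq2 called 1 member, where edgeR called 0, in female Corexit 9527 (0.0400% of genes), male oil (1.31%) and male Corexit 9500 mice (0.324%). The cause of these shifts was not tested. Fewer mice entered the fits without libraries.

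No called value of a member changed sign under any alternative that was run. Of 4429 log2 fold changes of members and their medians between pairs of groups or sexes under an alternative, called values included, 4218 stayed within the spread between mice or on their side of the threshold, 41 passed only under the alternative, 15 lost a call and 155 moved further. The test across the 6 groups, which has no direction, is counted apart. There members lost 18 calls and gained 5 in male mice and lost 0 and gained 3 in female mice. No paired analysis was possible because the groups compared share no mouse, and the numbers that female and male mice share belong to different animals.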
